A study of Mus musculus with 2 samples.

Results

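Matrix metalloproteinases and their inhibitors were followed in single cells from prostate tumors of 2 mouse genotypes. Over all cells Timp4 was the member that differed most between them, and it was put on the list with that difference known. The 10 genes, Mmp2, Mmp3, Mmp7, Mmp9, Mmp10, Mmp14 and Timp1 to Timp4, were taken as a list by symbol, and all 10 were found among the 28000 features of both libraries. DoubleTg mice (hHGFtg:H11 hMET/+:PB Cre4) expressed a human HGF transgene in every tissue and a human MET transgene only after Cre recombination, with Cre driven by a probasin promoter in prostate epithelium. TripleTg mice carried the same 3 alleles and also Ctnnb1 L(Ex3)/+, from which Cre removes exon 3 so that a stabilized β-catenin is made. Both lines were on a mixed C57BL/6 and C3H SCID background, and the DoubleTg tissue was labelled prostatic adenocarcinoma and the TripleTg tissue prostatic carcinoma. The age of the mice and the number of animals pooled into a library are not given in the sources used here. Each genotype was represented by 1 library, so there is no replicate check and no test, and every interval below covers counting error only.

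The DoubleTg library held 12072 cells, of which 10598 were kept with a median of 16761 unique molecular identifiers (UMIs, each marking a captured RNA molecule). The TripleTg library held 9492 cells, all kept, with a median of 20097 UMIs. The limits for keeping a cell were more than 200 and fewer than 7000 genes, with less than 15% of UMIs mitochondrial, and 29 cell barcodes were kept in both libraries. Cells were clustered in each library without any Mmp, Timp, Adam or Adamts gene and named from marker lists. Of the 8 luminal-like clusters in each library, 5 in DoubleTg and 1 in TripleTg had a listed luminal marker among their 10 leading genes. The luminal-like class held 5182 DoubleTg and 4958 TripleTg cells, the basal-like class 1881 and 1171, the fibroblast-like class 928 and 421, the macrophage-like class 491 and 484, and the endothelial-like class 261 and 220. Smaller classes were seminal vesicle-like cells (131 and 621) and a cluster led by Rgs5, with contractile genes, that took no cell type name (104 and 128). Axin2, a β-catenin target used as a check of the labels, lay between 0.216 and 2.75 CPM (UMIs of a gene per 1000000 UMIs of the cells it is counted in) in the 8 DoubleTg luminal-like clusters and between 26.7 and 128 CPM in the 8 TripleTg ones.

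Matrix metalloproteinases are zinc-dependent enzymes made as inactive proenzymes, most of them secreted, that cut collagens, laminins, proteoglycans and cell surface proteins. Tissue inhibitors of metalloproteinases (TIMPs) bind the active site of these enzymes, and TIMP2 also takes part in the activation of pro-MMP2 by the membrane-bound MMP14. In carcinomas most metalloproteinases are known to come from stromal cells, whereas MMP7, also called matrilysin, is known as an epithelial enzyme of glandular tissues.

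The genes of 3 enzymes lie in the same run of Mmp genes. On GRCm38, Mmp3 (chr9:7445822-7455975), Mmp10 (chr9:7502352-7510240) and Mmp7 (chr9:7692090-7699585), all on the plus strand, belong to this run of 10 genes between positions 7272514 and 7699585 of chromosome 9. Their upstream sequences are shown because these genes of 1 run differed in the class with their highest level, which in DoubleTg was luminal-like for Mmp7 and fibroblast-like for Mmp3 and Mmp10, and that of Timp4 (chr6:115241892-115252205, minus strand) because of its difference between the libraries. Each runs 5′ to 3′ on the strand of the gene and ends at the base before the transcript start given by RefSeq for GRCm38.p6. The windows are chr9:7445572-7445821 for Mmp3, chr9:7502092-7502341 for Mmp10, chr9:7691840-7692089 for Mmp7 and chr6:115252206-115252455 for Timp4. Capitals mark an AP-1 motif (TGANTCA) or a TATA box (TATAAA).
Mmp3: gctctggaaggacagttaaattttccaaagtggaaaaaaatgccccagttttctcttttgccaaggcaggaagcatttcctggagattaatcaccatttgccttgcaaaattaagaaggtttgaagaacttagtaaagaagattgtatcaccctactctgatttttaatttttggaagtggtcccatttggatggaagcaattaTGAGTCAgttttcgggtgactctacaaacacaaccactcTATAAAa
Mmp10: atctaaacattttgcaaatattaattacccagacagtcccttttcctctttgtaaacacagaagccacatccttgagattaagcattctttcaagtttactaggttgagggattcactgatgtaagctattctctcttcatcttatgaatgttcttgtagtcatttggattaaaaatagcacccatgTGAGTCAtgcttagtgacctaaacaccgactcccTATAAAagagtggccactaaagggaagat
Mmp7: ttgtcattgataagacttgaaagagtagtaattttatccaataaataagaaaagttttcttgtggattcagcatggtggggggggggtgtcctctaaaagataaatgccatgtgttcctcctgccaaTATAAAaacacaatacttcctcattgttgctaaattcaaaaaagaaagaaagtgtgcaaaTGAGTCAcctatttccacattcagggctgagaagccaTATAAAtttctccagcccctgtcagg
Timp4: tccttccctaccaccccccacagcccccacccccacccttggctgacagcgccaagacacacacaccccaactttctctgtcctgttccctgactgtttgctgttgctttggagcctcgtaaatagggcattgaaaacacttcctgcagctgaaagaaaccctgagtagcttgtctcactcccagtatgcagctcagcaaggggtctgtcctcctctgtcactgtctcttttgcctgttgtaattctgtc
Both strands of the 250 bases were searched for these motifs and for a TCF core, CTTTGAT, and no matches overlapped. The AP-1 motif read TGAGTCA in all 3 enzymes, at 63 to 57 bases before the start in both Mmp7 and Mmp10 and at 46 to 40 bases in Mmp3, and 6.75% of 32851 mouse promoters of the same length hold it. A TATA box lay 26 to 21 bases before the start of Mmp7, with another at 123 to 118 bases, 29 to 24 bases before that of Mmp10 and 7 to 2 bases before that of Mmp3, against 12.4% of all promoters. The Timp4 window held none of the motifs, nor did those of Mmp14, Timp1, Timp2 and Timp3. The TCF core, found in 3.21% of promoters, was present only for another Mmp7 transcript, on the opposite strand at 247 to 241 bases before a start that lies 251 bases downstream. A match describes letters and was not tied to binding.

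**Figure D1:**
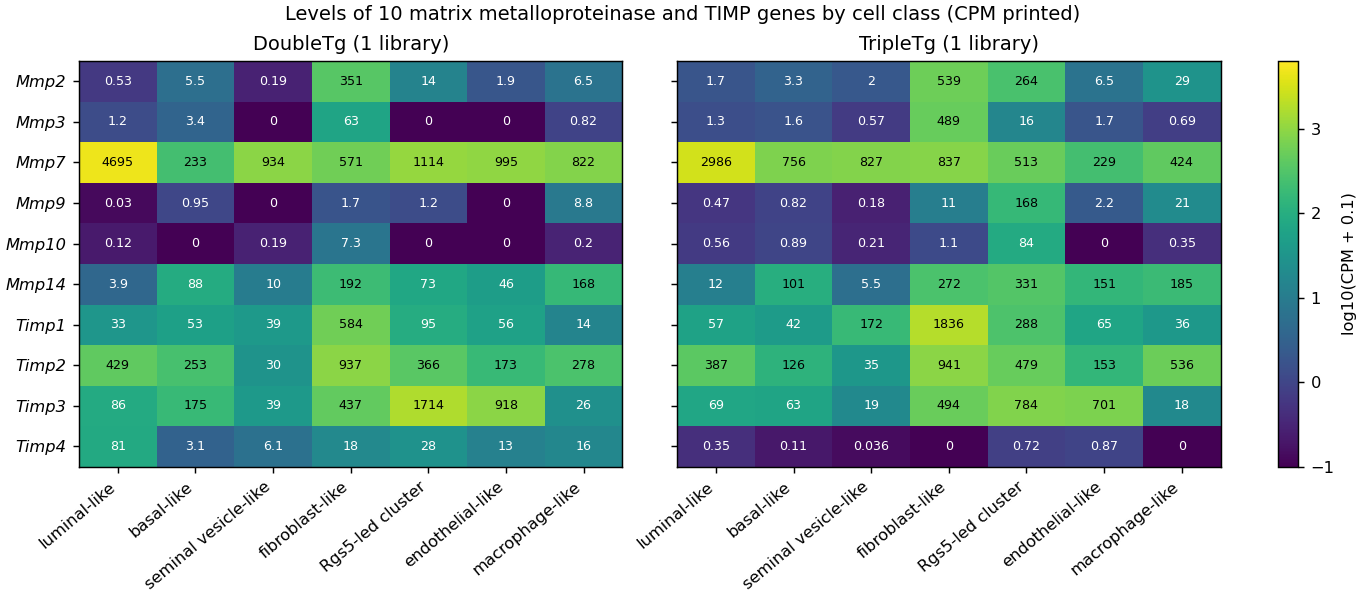
Level of each gene in 7 cell classes of the DoubleTg (left) and TripleTg (right) library. Color gives log10(CPM + 0.1) and the printed numbers are CPM, for 1 library per genotype. Mmp7 and Timp4 are highest in luminal-like cells of DoubleTg, Mmp2, Mmp3 and Timp1 in fibroblast-like cells of both libraries, and the Timp4 row is below 1 CPM throughout TripleTg. Numbers are compared along a row, not between genes.

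Mmp7 was an enzyme of luminal cells in both genotypes. Luminal-like cells held 96.4% of all Mmp7 UMIs in DoubleTg and 87.1% in TripleTg. Their level was 4695 CPM (95% exact Poisson interval 4686 to 4705) in DoubleTg and 2986 CPM (2977 to 2994) in TripleTg, a log2 ratio of TripleTg over DoubleTg of -0.65 (95% conditional binomial interval -0.66 to -0.65). The distribution over cells differed in shape between the libraries. With every cell thinned to 5000 UMIs, which left out 329 DoubleTg and 140 TripleTg cells that were shallower, the median luminal-like cell had 12 Mmp7 UMIs in both libraries. The DoubleTg cells were spread more widely, with 0 UMIs at the 10th percentile, 69 at the 90th and 230 in the highest cell, whereas TripleTg cells had 2, 33 and 111. After thinning, 17.9% of DoubleTg cells and 3.01% of TripleTg cells had no Mmp7 UMI. At the other end, cells with over 40 UMIs made up 23.2% of DoubleTg luminal-like cells and held 68.0% of their Mmp7, against 5.23% of cells and 17.6% of Mmp7 in TripleTg.

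**Figure D2:**
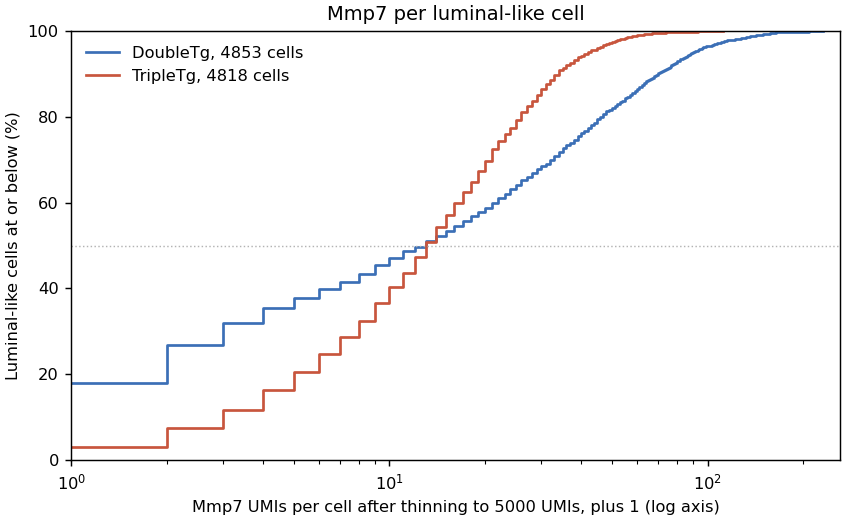
Cumulative share of luminal-like cells (%) against Mmp7 UMIs per cell after thinning to 5000 UMIs, plus 1, on a log axis, for 4853 DoubleTg and 4818 TripleTg cells. The curves cross near a share of 50%, since both medians are 12 UMIs, and the DoubleTg curve is the wider one, starting at 17.9% of cells with no UMI and reaching 230 UMIs.

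The spread in DoubleTg followed the luminal clusters. The luminal class was made of different clusters in the 2 libraries, and each cluster is given here by its leading genes. In DoubleTg the level of Mmp7 was 9648 CPM in the cluster led by Ctse and Areg (1245 cells), 7363 CPM in that led by 9530053A07Rik and Tgm4, 7334 CPM in that led by Jchain and Rnase1, and 4893 CPM in that led by Msmb and Alb (1071 cells). It was 2790 CPM in the Gsdmc2-led cluster and 1620 CPM in the cluster of interferon-response genes (Ifit1, Rsad2), and only 243 CPM in the cluster led by Sbp (629 cells) and 216 CPM in that led by Spink5 and Cxcl17. The 8 TripleTg clusters had a narrower range, from 1523 CPM in the cluster led by Birc5, a gene of dividing cells, to 4535 CPM in that led by Ifit3 and Tff3. The largest TripleTg clusters, led by Upk1b (1083 cells) and Fam213a (938 cells), had 3639 and 3703 CPM. Clusters could be paired between the libraries by shared leading genes in 3 cases, and the pairs did not differ in the same direction. The level was 7363 CPM in DoubleTg and 2249 CPM in TripleTg in the clusters that share Tgm4 and Pbsn (log2 ratio -1.71), 1620 and 4535 CPM in the interferon-response clusters (1.48), and 2790 and 4340 CPM in those that share Gsdmc2 and Cyp2f2 (0.64). The other 5 DoubleTg clusters, among them those led by Sbp and by Spink5, had no TripleTg partner under this rule.

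**Figure D3:**
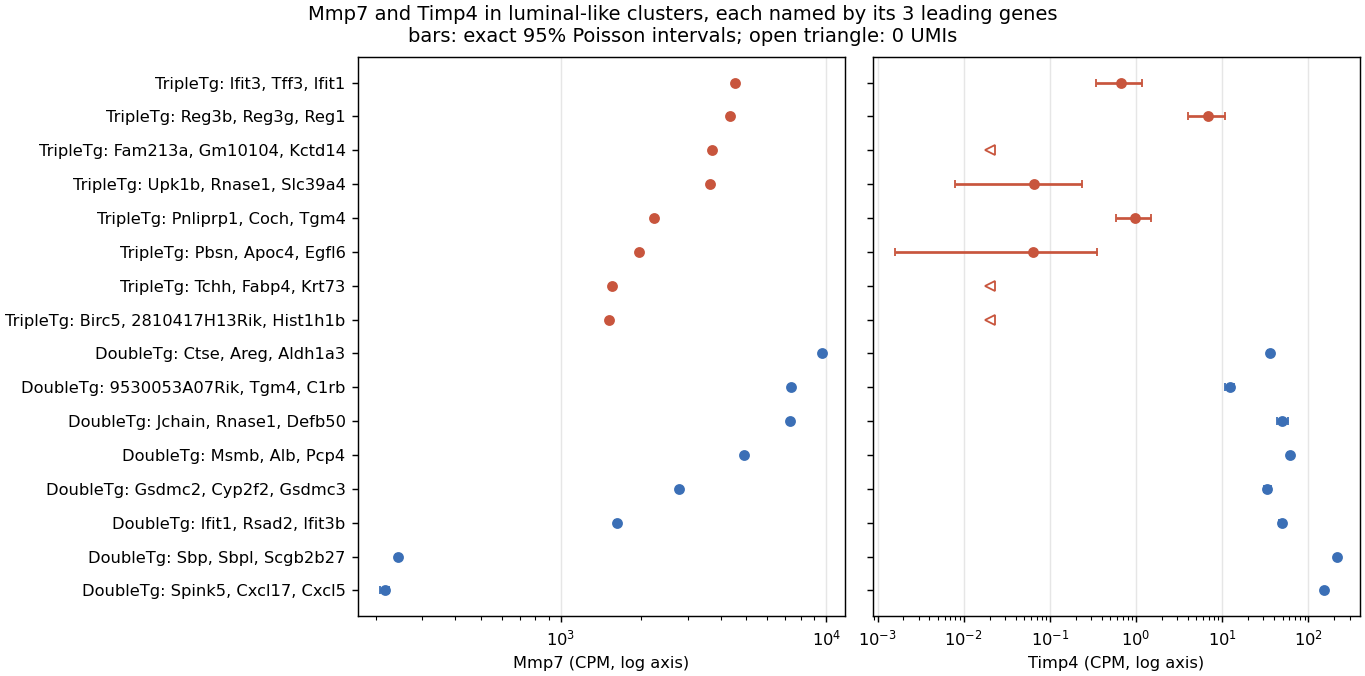
Mmp7 (left) and Timp4 (right) in the luminal-like clusters of TripleTg (red) and DoubleTg (blue), in CPM on log axes, with exact 95% Poisson intervals. Rows are named by the 3 leading genes, and open triangles, placed at a fixed point, stand for 0 UMIs. The DoubleTg clusters with the lowest Mmp7, led by Sbp and by Spink5, have the highest Timp4 (212 and 153 CPM), and no TripleTg cluster exceeds 6.76 CPM of Timp4.

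In the stromal, endothelial-like and macrophage-like classes the Mmp7 level was near that of free RNA, which leaks from broken cells and is captured along with any cell. Keratin, claudin and adhesion genes of luminal cells (Krt8, Krt18, Krt19, Cldn3, Cldn4 and Epcam) gave that background. In DoubleTg endothelial-like cells, which should lack Mmp7, the level was 995 CPM, or 21.2% of the luminal level, beside 19.5% for the luminal genes. In TripleTg it was 229 CPM, or 7.68%, beside 9.62%. The same held for macrophage-like cells (17.5% beside 21.3% in DoubleTg and 14.2% beside 15.4% in TripleTg), the Rgs5-led clusters (23.7% beside 24.8%, and 17.2% beside 19.0%) and fibroblast-like cells (12.2% beside 17.3%, and 28.0% beside 32.9%). Within DoubleTg fibroblast-like cells it was 2281 CPM in 227 shallow cells (median 1139 UMIs) and 122 CPM in 275 deeper ones (7788 UMIs). In TripleTg fibroblast-like cells it was 2367 CPM (2251 of 3047 UMIs) in the 88 cells led by Gpx3 and Cldn18. It was 475 CPM in the 186 cells led by Apod and 204.5 CPM in the 144 led by Col3a1. The luminal genes were not measured in these sub-clusters, so Mmp7 of the 88 cells is not placed against background. In the endothelial-like, macrophage-like, Rgs5-led and fibroblast-like classes as a whole Mmp7 is read as background. Its ratios between the libraries are not read as expression there. Mmp7 UMIs were seen in 97.5% of DoubleTg luminal-like cells (median depth 34820.5 UMIs) but also in 67.0% of endothelial-like cells (6502 UMIs), and after thinning the shares were 82.1% and 47.8%. In TripleTg the shares were 99.4% (25623.5 UMIs) and 67.3% (7355.5 UMIs), or 97.0% and 53.9% after thinning. Seminal vesicle-like cells, also epithelial, had 934 CPM of Mmp7 (4902 UMIs) in DoubleTg and 827 CPM (23164 UMIs) in TripleTg. They were not set beside this background. Basal-like cells express the luminal genes themselves at a lower level and have no such yardstick. Mmp7 in them was 233 CPM (227 to 239) in DoubleTg and 756 CPM (746 to 767) in TripleTg, a log2 ratio of 1.70 (1.66 to 1.74), and the thinned share of cells with a UMI was 46.8% and 72.5%. Its level was 128 and 260 CPM in the 2 DoubleTg basal-like clusters and 373, 570 and 917 CPM in the 3 TripleTg ones. As a share of the luminal level, Mmp7 in basal-like cells was 4.96% in DoubleTg and 25.3% in TripleTg. Both lay inside the range of the stromal and immune classes of the same library, 2.31% in dendritic-like to 23.7% in Rgs5-led cells in DoubleTg and 7.68% in endothelial-like to 28.0% in fibroblast-like cells in TripleTg, so basal-like Mmp7 cannot be told apart from free RNA by these values.

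Mmp2, or gelatinase A, was made by fibroblast-like cells. It stood at 351 CPM (338 to 363) in DoubleTg and 539 CPM (516 to 564) in TripleTg, a log2 ratio of 0.62 (0.54 to 0.70), and these cells held 90.4% of its UMIs in DoubleTg and 55.3% in TripleTg, or 71.2% with the unnamed Crispld2-led cells described below counted with them. Thinned shares of fibroblast-like cells with a UMI were alike, 64.5% and 66.2%, whereas those of luminal-like cells were 0.350% and 0.893%. The Rgs5-led cluster was the next class, with 14.2 CPM in DoubleTg and 264 CPM in TripleTg. Fibroblast reference genes (Col1a1, Col1a2, Col3a1, Dcn and Lum) also differed in this cluster, at 823 CPM (8.40% of their fibroblast-like level) in DoubleTg and 4115 CPM (22.7%) in TripleTg, and their part in the Mmp2 difference was not tested. In macrophage-like cells Mmp2 was 6.53 CPM (32 UMIs) in DoubleTg and 28.9 CPM (167 UMIs) in TripleTg, a log2 ratio of 2.14 (1.59 to 2.74). The DoubleTg value was at the free RNA background, 1.86% (1.27 to 2.63) of the fibroblast-like level beside 1.65% for the reference genes, and the TripleTg value was above it, 5.35% (4.57 to 6.23) beside 0.422%, so the ratio has no measured expression level as its base. The levels of seminal vesicle-like and luminal-like cells, last in the TripleTg order, had overlapping intervals.

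Mmp3, stromelysin-1, a broad protease that also activates other proenzymes, was higher in TripleTg fibroblast-like cells as a class. Its level was 63.1 CPM (561 UMIs) in DoubleTg and 489 CPM (1781 UMIs) in TripleTg, a log2 ratio of 2.95 (2.82 to 3.09). A UMI was present in 7.43% of thinned DoubleTg and 28.0% of thinned TripleTg fibroblast-like cells, with 322 and 214 shallower cells left out, against 0.124% and 0.519% of luminal-like cells. Few cells carried most of the signal, since 10 cells held 50% of all Mmp3 UMIs in DoubleTg (up to 173 in 1 cell) and 14 cells, all fibroblast-like, in TripleTg (up to 191). No other named class reached 5 CPM in DoubleTg, and in TripleTg only the Rgs5-led cluster did, at 15.9 CPM (22 UMIs in 3 cells). That is a smaller share of the fibroblast-like level than the fibroblast reference genes have in this cluster. It cannot be told apart from fibroblast RNA carried along.

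The fibroblast-like class was not uniform, and the enzymes and inhibitors followed its sub-clusters. In TripleTg the 144 cells led by Col3a1, Col1a2 and Mfap5 (median depth 10510.5 UMIs) had 982 CPM of Mmp2, 965 CPM of Mmp3 and 3393 CPM of Timp1. The 186 cells led by Apod and Lum had 186, 37.3 and 458 CPM of the same genes. The 88 cells led by Gpx3 and Cldn18, those with 2367 CPM of Mmp7, had 63.1, 44.2 and 293 CPM. In DoubleTg the 411 cells led by Wif1 and Mgp had 497 CPM of Mmp2, 107 CPM of Mmp3 and 825 CPM of Timp1, and the other 517 fibroblast-like cells had 192, 15.5 and 324 CPM. A TripleTg cluster of 184 cells led by Crispld2 and Sfrp2 shared leading genes with the DoubleTg Wif1 cells and was left unnamed, with a median of 6469 UMIs against 20097 in its library and no listed fibroblast marker among its 10 leading genes. It had 446 CPM of Mmp2, 19.8 CPM of Mmp3 and 150 CPM of Timp1. Set against those DoubleTg cells it was lower in Mmp3 (log2 ratio -2.44), Timp1 (-2.46), Mmp14 (-0.43, -0.63 to -0.23) and Mmp2 (-0.16, -0.29 to -0.02). The other pair of matched clusters gave 4.98 for Mmp3, 2.50 for Timp1, 1.31 for Mmp14 and 1.49 for Mmp2. With the Crispld2-led cells counted as fibroblast-like, the ratios of the class were 2.54 for Mmp3 and 1.26 for Timp1. The highest levels of these 3 genes in TripleTg lay in 1 sub-cluster, the 144 cells led by Col3a1.

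**Figure D4:**
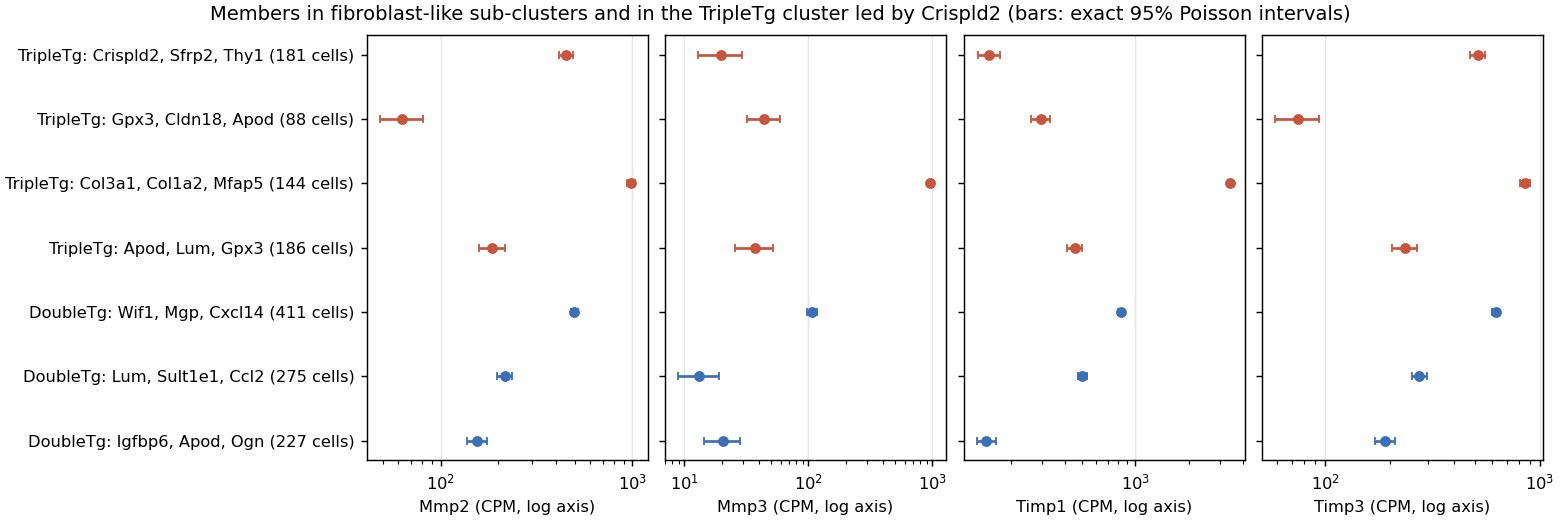
Mmp2, Mmp3, Timp1 and Timp3 (CPM, log axes) in the fibroblast-like sub-clusters of TripleTg (red) and DoubleTg (blue) and in the finer TripleTg cluster led by Crispld2 (181 cells), with exact 95% Poisson intervals. The 144 TripleTg cells led by Col3a1 are highest in all 4 genes, with 965 CPM of Mmp3 and 3393 CPM of Timp1.

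Mmp10 (stromelysin-2) and Mmp9 (gelatinase B) were rare. Over all kept cells Mmp10 had 92 UMIs in DoubleTg and 244 in TripleTg, and Mmp9 had 90 and 512. In DoubleTg Mmp10 was highest in fibroblast-like cells, with 65 UMIs (7.31 CPM), all in the cells led by Wif1 and Mgp, and TripleTg fibroblast-like cells had 4 UMIs (1.10 CPM), a log2 ratio of -2.73 (-4.65 to -1.31) that changed sign to 1.22 when the clustering was coarser. The TripleTg Rgs5-led cluster had 84.5 CPM of Mmp10 (117 UMIs), whereas the DoubleTg one had 0 UMIs, where 3 UMIs would be 3.55 CPM. Mmp9 behaved alike in this cluster, with 1 UMI in DoubleTg and 232 UMIs (167 CPM, 147 to 190) in TripleTg. These TripleTg values rested on few cells, since 7 cells, 5 of them Rgs5-led, held 50% of the Mmp9 UMIs of the library (up to 84 in 1 cell), and 5 cells held 50% of the Mmp10 UMIs (up to 78 in 1 cell). In macrophage-like cells, a known source of MMP9, Mmp9 was 8.77 CPM (6.35 to 11.8) in DoubleTg and 20.6 CPM (17.0 to 24.6) in TripleTg, a log2 ratio of 1.23 (0.72 to 1.77), with a UMI in 2.57% and 7.46% of thinned cells. Of the 119 TripleTg UMIs, 116 lay in the 272 cells led by Ccl4 and H2-Aa (43.5 CPM) and 1 in the 193 cells led by Spp1 and Lyz2 (0.324 CPM), whereas the 294 DoubleTg cells led by Ccl4 and C1qa had 11.7 CPM. In fibroblast-like cells Mmp9 had 15 UMIs in DoubleTg and 40 in TripleTg (log2 ratio 2.70), but 39 of the 40 lay in 2 cells, and the ratio was -1.27 with the cells of highest doublet score left out.

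Mmp14, the membrane-type enzyme MT1-MMP, was found in stromal, macrophage-like and basal-like cells. In DoubleTg its level was 192 CPM in fibroblast-like, 168 CPM in macrophage-like, 88.4 CPM in basal-like, 73.4 CPM in Rgs5-led, 46.3 CPM in endothelial-like, 10.48 CPM in seminal vesicle-like and 3.95 CPM in luminal-like cells. In TripleTg the order began with the Rgs5-led cluster, at 331 CPM, followed by fibroblast-like (272), macrophage-like (185), endothelial-like (151), basal-like (101), luminal-like (11.8) and seminal vesicle-like cells (5.46). In DoubleTg the intervals of basal-like and Rgs5-led cells overlapped, as did those of Rgs5-led and endothelial-like cells. The ratio was past 2-fold in the Rgs5-led cluster (log2 2.17, 1.79 to 2.58), in endothelial-like cells (1.70, 1.38 to 2.04) and in luminal-like cells (1.58, 1.46 to 1.70). It was 0.51, 0.19 and 0.15 in fibroblast-like, basal-like and macrophage-like cells, and -0.94 (-1.39 to -0.47) in seminal vesicle-like cells. Within the DoubleTg macrophage-like class Mmp14 was 221 CPM in 294 cells led by Ccl4 and C1qa and 42.6 CPM in 197 shallow cells with plasma cell genes. The TripleTg sub-clusters had 219.5 CPM (led by Spp1 and Lyz2) and 147 CPM (led by Ccl4 and H2-Aa). In TripleTg luminal-like clusters Mmp14 lay between 4.32 and 16.9 CPM except in the small Reg3b-led cluster, where it was 50.3 CPM. The matched luminal pairs had log2 ratios of 2.75 (Gsdmc2), 1.28 (Tgm4) and 0.38 (0.04 to 0.72, interferon response). Thinned shares of luminal-like cells with a Mmp14 UMI were 1.75% in DoubleTg and 5.19% in TripleTg, beside 0.334% in DoubleTg T or NK-like cells (median depth 6311 UMIs), which should lack it.

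Timp4, the inhibitor with the most restricted expression, was nearly absent from TripleTg. Over all kept cells it had 16933 UMIs (65.9 CPM, 64.9 to 66.9) in DoubleTg and 61 UMIs (0.266 CPM, 0.203 to 0.341) in TripleTg, a log2 ratio of -7.96 (-8.34 to -7.59), or 248-fold lower. Timp4 is on the list with this difference known, so the value is a description. In DoubleTg 94.95% of its UMIs were in luminal-like cells, at 80.7 CPM, and the TripleTg luminal-like level was 0.350 CPM (53 UMIs), a log2 ratio of -7.85 (-8.27 to -7.46). A UMI was found in 59.5% of DoubleTg luminal-like cells and in 0.908% of TripleTg ones, or in 24.6% and 0.166% after thinning, and in 5.75% of DoubleTg endothelial-like cells (5.10% after thinning). Every luminal-like cluster of DoubleTg had it, from 12.2 CPM in the Tgm4 cluster to 153 CPM in the Spink5-led and 212 CPM in the Sbp-led cluster, the clusters with the least Mmp7. In TripleTg the Upk1b-led and Pbsn-led clusters had 0.0646 and 0.0638 CPM, and those led by Fam213a, Tchh and Birc5 had 0 UMIs. Most of the remaining UMIs were in the clusters led by Pnliprp1 and Tgm4 (20 UMIs, 0.970 CPM), Reg3b (18 UMIs, 6.76 CPM) and Ifit3 (12 UMIs, 0.666 CPM).

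The Reg3b-led cluster, 95 cells, had the highest Timp4 of the TripleTg luminal-like clusters together with the lowest Axin2 (26.7 CPM, against 57.9 to 128 CPM in the others) and the lowest hMETtg (2.63 CPM, against 12.6 to 38.3 CPM). The part of recombination in this was not tested. Among luminal-like cells with at least 1 hMETtg UMI alone, the log2 ratio of Timp4 was -10.69. The whole TripleTg luminal-like class had 53 Timp4 UMIs, so this value rests on few UMIs, and it is given without an interval. Each of the 3 matched luminal pairs was lower in TripleTg, with log2 ratios of -6.21 for the interferon-response clusters, -3.65 for the Tgm4 clusters and -2.30 for the Gsdmc2 clusters. The Timp4 of other DoubleTg classes was set beside the free RNA background. It was 20.2% (16.0 to 25.2) of the luminal level in macrophage-like, 15.5% (10.2 to 22.6) in endothelial-like and 35.2% (22.6 to 52.4, on 24 UMIs) in Rgs5-led cells, beside 21.3%, 19.5% and 24.8% for the luminal genes, which these intervals include. In fibroblast-like cells it was 22.7% (19.4 to 26.5) beside 17.3%, but 137 of the 163 UMIs lay in the 227 shallow cells that also held the most Mmp7. It was 163 UMIs in DoubleTg and 0 in TripleTg fibroblast-like cells (at least 22.3-fold lower), and 80 and 0 in macrophage-like cells (at least 31.5-fold lower), with the floor at 3 UMIs per class. The differences in fibroblast-like and macrophage-like cells are not read as changes in those cells. Timp4 lies inside Syn2 on the opposite strand, and Timp1 and Timp3 lie in the same way inside Syn1 and Syn3.

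Timp1, an inducible secreted inhibitor that is also known to promote cell growth, was highest in fibroblast-like cells of both libraries. Its level was 584 CPM (569 to 600) in DoubleTg and 1836 CPM (1792 to 1880) in TripleTg, a log2 ratio of 1.65 (1.60 to 1.70). With each cell given equal weight the ratio was 0.69, and thinned shares of cells with a UMI were 39.9% and 72.5%. The Rgs5-led cluster followed, with 94.7 and 288 CPM. In seminal vesicle-like cells Timp1 was 39.5 CPM (34.3 to 45.2) in DoubleTg and 172 CPM (167 to 177) in TripleTg, a log2 ratio of 2.12 (1.92 to 2.33), and it stood at 174 and 167 CPM in the 2 TripleTg clusters of this class. The thinned share of these cells with a UMI was 9.18% of 98 cells and 51.4% of 557 cells. Luminal-like cells had 33.2 and 57.3 CPM (log2 0.79), and the matched luminal pairs had log2 ratios of 2.38 (interferon response), 0.73 (Tgm4) and -0.24 (-0.56 to 0.07, Gsdmc2). Macrophage-like cells had 14.5 and 36.3 CPM (1.33, 0.93 to 1.73). Among macrophage-like sub-clusters Timp1 was 60.0 CPM in the TripleTg cells led by Ccl4 and H2-Aa, whereas it was 15.9 CPM in those led by Spp1 and Lyz2 and 14.2 and 14.6 CPM in the DoubleTg ones. Endothelial-like cells had 56.0 and 65.3 CPM, and the interval of the ratio, -0.13 to 0.58, included no difference.

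Timp2, the inhibitor made constitutively in many tissues, was highest in fibroblast-like cells of both libraries, at 937 CPM (917 to 957) in DoubleTg and 941 CPM (910 to 973) in TripleTg, with a log2 ratio of 0.01 (-0.05 to 0.06). With the Crispld2-led cells counted as fibroblast-like the ratio was -0.15 (-0.20 to -0.10), and the matched pairs gave -0.63 (Wif1-led and Crispld2-led) and -0.10. Timp2 was also a luminal gene, with 429 and 387 CPM (log2 -0.15, -0.16 to -0.13) and a median of 2 UMIs per thinned cell in both libraries. The matched luminal pairs differed in both directions, with log2 ratios of 0.65 (Tgm4), -0.71 (interferon response) and -0.93 (Gsdmc2). Seminal vesicle-like cells had little, 29.7 and 34.9 CPM. It was higher in TripleTg macrophage-like cells, at 536 against 278 CPM (0.95, 0.85 to 1.04). That level was uneven over macrophage-like sub-clusters, at 752 CPM in 193 TripleTg cells led by Spp1 and Lyz2 and 286 CPM in 272 led by Ccl4 and H2-Aa. The DoubleTg sub-clusters had 252 CPM in 294 cells led by Ccl4 and C1qa and 338 CPM in 197 shallow cells (median 1022 UMIs) with plasma cell genes (Jchain, Mzb1) among their leading genes. Timp2 was lower in TripleTg basal-like cells, at 126 against 253 CPM (-1.01, -1.07 to -0.95). Within the TripleTg basal-like class Timp2 ranged from 61.5 CPM in the cluster led by Mt4 to 264 CPM in the cluster led by Krt15, beside 251 and 262 CPM in the DoubleTg clusters. The Krt15-led cluster was the TripleTg cluster matched by leading genes to a DoubleTg basal-like one, and that pair had a log2 ratio of 0.01 (-0.12 to 0.13) for Timp2. Listed basal markers numbered 5 among the 10 leading genes of each DoubleTg basal-like cluster, and 4 in the Krt15-led, 1 in the Mt4-led and 0 in the Ivl-led TripleTg cluster.

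Timp3, which binds to the extracellular matrix, had its highest levels in the Rgs5-led, endothelial-like and fibroblast-like cells. The Rgs5-led cluster had 1714 CPM (1627 to 1805) in DoubleTg and 784 CPM (738 to 832) in TripleTg, endothelial-like cells had 918 CPM (878 to 960) and 701 CPM (667 to 736), and fibroblast-like cells had 437 and 494 CPM. The order of these 3 classes was the same in both libraries, and none of their neighboring intervals overlapped. Luminal-like cells had less per UMI, 86.2 and 69.1 CPM, but as the largest class they held 57.5% of all Timp3 UMIs in DoubleTg and 56.4% in TripleTg. The matched luminal pairs had log2 ratios of -1.14 (Tgm4), 0.33 (interferon response) and 1.08 (Gsdmc2). The ratio was -0.39 (-0.49 to -0.29) in endothelial-like and 0.18 (0.10 to 0.26) in fibroblast-like cells, on the log2 scale. The fibroblast-like ratio changed sign to -0.12 with each cell given equal weight, and the matched pairs gave 1.06 and, for the Wif1-led and Crispld2-led clusters, -0.28. Of the 5 classes compared, basal-like cells had the lowest ratio, with 175 CPM in DoubleTg and 62.8 CPM in TripleTg (-1.48, -1.56 to -1.40). As for Timp2, the Krt15-led TripleTg cluster stood apart, with 290 CPM against 34.4 and 32.9 CPM in the other TripleTg basal-like clusters and 173 and 181 CPM in DoubleTg. Its matched pair had a log2 ratio of 0.68 (0.55 to 0.81).

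**Figure D5:**
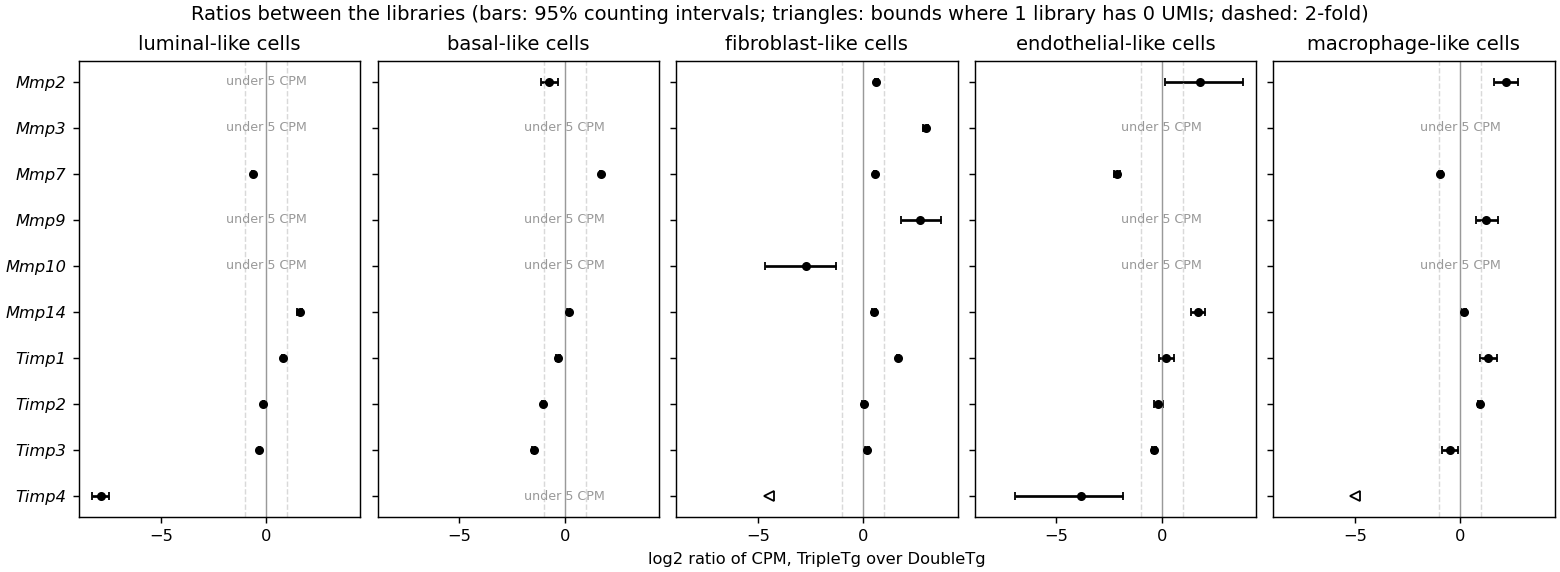
Log2 ratio of CPM, TripleTg over DoubleTg, for the 10 genes in 5 cell classes. Points carry 95% conditional binomial intervals for counting error, triangles are bounds where 1 library had 0 UMIs, dashed lines mark 2-fold, and genes under 5 CPM in both libraries are named as such. Timp4 lies far to the left in luminal-like cells (-7.85) and Mmp3 to the right in fibroblast-like cells (2.95).

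Counts of members past 2-fold were read against all genes of the class that had at least 5 CPM in either library. Timp4 was listed with its loss in TripleTg known, so its call in these counts was set beforehand and carries no weight. In luminal-like cells 2 of 6 members passed (Mmp14 higher, Timp4 lower in TripleTg), where 23.9% of all genes did. In basal-like cells it was 3 of 6 (Mmp7 higher, Timp2 and Timp3 lower) against 28.3%, and in fibroblast-like cells 5 of 10 (Mmp3, Mmp9 and Timp1 higher, Mmp10 and Timp4 lower) against 18.6%. The fibroblast-like count was 3 of 8 with the cells of highest doublet scores left out and 2 of 8 with each cell given equal weight, and Mmp9 and Mmp10 changed sign under alternatives. In endothelial-like cells it was 4 of 7 (Mmp2 and Mmp14 higher, Mmp7 and Timp4 lower) against 22.2%, and in macrophage-like cells 4 of 8 (Mmp2, Mmp9 and Timp1 higher, Timp4 lower) against 17.2%. In the Rgs5-led cluster it was 9 of 10 (all but Timp2, with Mmp7, Timp3 and Timp4 lower) against 30.5%, and in seminal vesicle-like cells 3 of 6 (Timp1 higher, Timp3 and Timp4 lower) against 25.1%. Mmp7 of endothelial-like and Rgs5-led cells is at or near background, as given above. So is Timp4 of fibroblast-like, endothelial-like, macrophage-like and DoubleTg Rgs5-led cells, and Mmp2 of DoubleTg macrophage-like cells. Basal-like Mmp7 cannot be told apart from background, and seminal vesicle-like Timp4 was not set beside it. In the TripleTg Rgs5-led cluster Mmp3 was 3.25% and Timp1 15.7% of the fibroblast-like level, beside 22.7% for fibroblast reference genes. Neither can be told apart from fibroblast RNA there, whereas DoubleTg Timp1 was 16.2% beside 8.40%. Mmp9 and Mmp10 of that TripleTg cluster lay in 15 and 13 cells. The 9 of 10 includes all of these Rgs5-led calls. Endothelial Mmp2 was 4 UMIs in DoubleTg and 15 in TripleTg, or 0.529% and 1.20% of the fibroblast-like level, beside 0.681% and 0.816% for fibroblast reference genes, so it was also near the free RNA background. Median log2 ratios of the members were -0.23, -0.53, 0.53, -0.17, 0.55, 1.88 and -0.56 in the same order, beside -0.01, -0.07, 0.04, 0.07, 0.12, 0.04 and -0.50 for all genes.

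The wider family was described from a list of 34 genes, of other matrixins, related ADAM and ADAMTS proteases, and inhibitors or partners. Of these, 22 reached 20 CPM in a named class and 12 did not, among them Mmp8, Mmp11, Mmp24 and A2m. Of 21 genes compared in 1 class each, 9 were at least 2-fold higher in TripleTg, 6 were at least 2-fold lower and 6 were within 2-fold. Each gene was compared in the class where it was highest in either library. Where the highest class differed between libraries (Mmp19, Adam8, Adamts2 and Adamts5) the class used was that of TripleTg, which favors a higher value there, so the counts are not read as a direction of the family. Genes were named for reaching 20 CPM in either library, which Adam12 and Mmp20 did in TripleTg only and Mmp15, Mmp17 and Reck in DoubleTg only, and between 17.2% and 30.5% of all genes were past 2-fold in the classes they were compared in (25.1% in seminal vesicle-like cells and 30.5% in the Rgs5-led clusters). In macrophage-like cells Mmp12, macrophage elastase, was 331 CPM in DoubleTg and 900.1 CPM in TripleTg (log2 1.44, 1.36 to 1.52), Mmp19 was 51.4 and 285 CPM (2.47), and Adam8 was 41.6 and 135 CPM (1.70), whereas Mmp13, a collagenase, was 121 and 41.8 CPM (-1.53, -1.75 to -1.31). The DoubleTg class includes the 197 shallow cells with plasma cell genes, and these genes were not compared by sub-cluster. In luminal-like cells Mmp20, the gene next to Mmp7 in the chromosome 9 run and known from tooth enamel, was 0.406 and 27.1 CPM (6.06, 5.74 to 6.39), and the membrane-type Mmp15 was 70.7 and 17.0 CPM (-2.06). In fibroblast-like cells Mmp23 (84.3 and 211 CPM) and the aggrecanase Adamts5 (25.9 and 114 CPM) were higher in TripleTg, and Reck, a membrane-anchored inhibitor, was 24.2 and 12.4 CPM. In the Rgs5-led clusters Adamts1 (1476 and 616 CPM), Adamts4 (931 and 306 CPM) and Mmp17 (24.9 and 7.22 CPM) were lower in TripleTg and Adamts2, a procollagen processing enzyme, was higher (56.8 and 342 CPM). In endothelial-like cells Adam10 (101 and 218 CPM) and Adam12 (4.17 and 30.3 CPM) were higher and Adamts9 (599.9 and 206 CPM) was lower. Adam9, Adam15, Adam17, Bsg and Lcn2 were within 2-fold in their classes, and Mmp25 was highest in dendritic-like cells (51.3 CPM), a class named in DoubleTg only.

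Genes with the most similar pattern were ranked by Pearson correlation of log2(CPM + 1) over the 42 clusters of both libraries, among 6721 genes. The clusters share libraries and depth, so r is a description. Mmp2 was closest to the matrix genes Vcan (r = 0.95), Serpinf1 (0.95) and Bgn (0.94), Mmp3 to Scara5 (0.89), Prg4 (0.86) and Epyc (0.85), and Mmp14 to Fn1 (0.87), Itga5 (0.86) and Rab12 (0.86). Mmp7 was closest to Upk1b (0.88), Btc (0.88) and Zfp37 (0.86). Timp4 was closest to Abo (0.98), 5430419D17Rik (0.96) and Slc26a4 (0.96). Timp3 was closest to Syn3 (0.94), the gene it lies in, then to Osmr (0.92) and Ptprg (0.90), and Syn3 UMIs followed it in the Rgs5-led clusters (75.8 and 39.0 CPM). The nearest genes were weaker matches for Timp1 (Flnc, 0.81, Bicc1, 0.80, and Efemp2, 0.78) and Timp2 (Pam, 0.76, Mfge8, 0.76, and Tceal8, 0.75). For the rare enzymes they were 1810011H11Rik (0.79), Slc7a2 (0.78) and Col14a1 (0.78) for Mmp9, and Cpa1 (0.81), Actg2 (0.75) and Pcsk1n (0.75) for Mmp10.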

How the data were processed

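Single-cell RNA-seq (10x Genomics 3′ v3 chemistry) was measured in 1 DoubleTg and 1 TripleTg tumor library after enzymatic dissociation. The authors deposited unnormalized UMI counts per gene and cell, made with Cell Ranger (6.0.2 per the labels, 6.1.1 in the header of the DoubleTg matrix) against mm10 with the transgene sequences added. The limits on genes and mitochondrial UMIs that the study states had been applied to the TripleTg matrix before deposit but not to the DoubleTg matrix, and after applying them here the DoubleTg library held more cells than the study states for it.

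Clustering was run separately for the 2 libraries in scanpy 1.11.5 (log counts per 10000, 2000 variable genes with protease and inhibitor genes left out, 20 principal components, 15 neighbors, Leiden resolution 1). Clusters were named from marker lists, and the naming thresholds were adjusted once clusters were known. Of the kept cells, 1121 in DoubleTg and 1398 in TripleTg stayed unnamed, most of them shallow. Doublets were not removed in the main values. UMIs were summed per class and divided by the class total to give CPM. Levels carry exact Poisson intervals, shares exact Clopper-Pearson intervals and ratios conditional binomial ones, and a sum of 0 was set to 3 UMIs. A member counted when it had at least 5 CPM in either library. No test between genotypes was possible with 1 library each. Cell barcodes present in both deposited matrices numbered 30.

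The text names all 10 members, family genes with at least 20 CPM in a named class, and the 3 genes most like each member. The members and lists were chosen with earlier results of these data known. Gene positions are from GENCODE mouse release 21 on GRCm38. Promoter sequences were matched by symbol for 8 of 10 members, with no entry used for Mmp2 and Mmp9. Ratio steps were tested on simulated data. Scaling alternatives used edgeR 4.0.16 and DESeq2 1.42.0 factors, without their tests.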

Additional observations from a re-analysis of the deposited data

How the results depend on the processing

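No paired analysis was possible because each genotype had 1 library. For Mmp7 in luminal-like cells the log2 ratio of -0.65 stayed negative under the class-wide alternatives run, whereas of the matched cluster pairs 1 was negative (-1.71) and the others were positive (0.64 and 1.48). It was -0.67 with cells thinned to 5000 UMIs, with no cell filter, at Leiden resolution 2 and with each cell given equal weight, -0.74 with TMM factors of edgeR or DESeq2 size factors, and -0.75 in hMETtg-positive luminal-like cells alone. For Timp4 over all kept cells the ratio of -7.96 was -7.39 with thinned cells and -7.07 with each cell given equal weight. The number of members past 2-fold in luminal-like cells was 2, Timp4 among them, and 5 without a filter on low values. That in fibroblast-like cells was 5 of 10, and 3 of 8 with the cells of the 8% highest doublet scores left out (899 DoubleTg and 817 TripleTg cells) and 2 of 8 with each cell given equal weight. Over the 11 class-wide settings run for fibroblast-like cells, which leave out the matched clusters, the sign was kept for Mmp2 (0.42 to 0.79), Mmp3 (2.40 to 3.29), Mmp14 (0.36 to 0.66) and Timp1 (0.69 to 1.74), and not for Mmp9, Mmp10, Timp2 and Timp3. The matched pair of Wif1-led and Crispld2-led clusters was negative for Mmp2 (-0.16), Mmp3 (-2.44), Mmp14 (-0.43) and Timp1 (-2.46). The settings on equal weight, on highest doublet scores, on the Crispld2-led cluster and on matched clusters were chosen after seeing the data. Scrublet, planned as the doublet alternative, called 310 DoubleTg cells and 0 TripleTg cells, so it did not work in TripleTg. The causes of these shifts were not tested. With 1 library per genotype, differences between mice, tumors or dissociations cannot be told apart from genotype. Shallow fibroblast-like cells and rare enzymes such as Mmp9 and Mmp10 are limited by depth.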
